A study of Mus musculus with 72 samples.

Results

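The interferon response genes are the genes that cells switch on when an interferon binds its receptor. A list of 34 such genes was followed in mouse liver, grouped by role into sensors of foreign nucleic acid, transcription factors, antiviral effectors, immunity-related GTPases and genes of antigen presentation. Only probe sets annotated with a single symbol were used, and a gene with more than 1 of them was represented by the brightest on average. This gave 30 measured members of 19938 named genes. Isg15, Gbp2 and Igtp appeared only on probe sets that list several genes, Ifi44 was not named by the probe annotation used here, and none of these 4 has a value below. Irf1 alone among the members had 2 probe sets.

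Livers came from random-fed, singly housed male wild-type mice of 4 inbred strains, 129P2/OlaHsd (129), C57BL/6J (B6J), C57BL/6NTac (B6N) and C3HeB/FeJ (C3H). In each strain an arm was fed high fat (HFD) over 21 days, and the other served as control. The control arms held 8 mice of 129, B6J and B6N each and 18 of C3H, and the HFD arms 7 of 129 and B6J each and 8 of B6N and C3H each, with 1 array per mouse and 72 arrays in all. All 129 mice were 17 weeks old, as were the HFD mice of the other strains, whose controls were 15 to 17 weeks old. The controls' treatment label reads none, while the protocol text names a low-fat diet for up to 21 days, so an HFD effect is a difference from these controls.

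Type I and type III interferons signal through receptor-bound Janus kinases to transcription factors that include STAT2 and IRF9 and bind the interferon-stimulated response element (ISRE) in gene promoters. Interferon gamma, made by T and natural killer cells, acts mainly through the gamma-activated site (GAS). The resulting proteins block viral replication, destroy pathogen-holding vacuoles and raise the processing of peptides for display to T cells. In liver, hepatocytes, Kupffer cells and endothelial cells can all mount this response. Which of them gave the signal cannot be read from whole tissue, where fewer cells of a type and less RNA per cell cannot be told apart.

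The values are log2 probe set signals, so a difference of 1 is a doubling. The medians of the arrays over all probe sets fell into 3 ranges, 6.46 to 6.65 in 129, 4.51 to 4.67 in B6J and B6N, and 3.10 to 3.28 in C3H, and levels are therefore set side by side only within these 3 sets. The first principal component within 129 rested largely on 129 control 6 (68.9% of it). The B6J and B6N arrays were cut into 2 parts by the sign of their first principal component, taken from deviations from the group means of genes in no list. Such deviations cancel within a group, so each part holds all 4 groups by construction, and the cut does not show 2 separate clusters. Hepatocyte markers, of which 9 had a value, averaged between 11.3 and 13.61 in every array, far above the array medians. For members, the array median here and below is that of the probe sets with a single symbol, which is higher than the median over all probe sets. Of the members, 21 lay above this array median in all 8 groups, and Ifit2, Mx2 and Oas2 lay below it in every group, where low signal cannot be told from background. Against the medians over all probe sets, Oas2 in 129 HFD livers (mean 6.58) lay above those of its arrays (6.46 to 6.54). B2m, the light chain of class I molecules, was the highest member by signal in every group. Its group means were 13.64 in 129 controls, 12.80 in B6J controls, 12.78 in B6N controls and 11.58 in C3H controls.

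The first question was whether HFD changed these genes in any strain. Bst2 alone passed the test, in the mean of the strains and in no single strain. Under limma, a linear model with spread shared across genes, 0 of 30 members passed an adjusted p of 0.05 in 129, B6J, B6N or C3H. Of all genes 0.577% passed in 129, 0.296% passed in B6J, 0.918% passed in B6N and 0.853% passed in C3H. These counts over all genes moved with the setting: the 115 calls in 129 were 69 without 129 HFD 6, 41 with 129 arrays alone and 576 with array weights, the 59 in B6J were 38 without B6J control 5, 95 with B6J arrays alone and 129 with array weights, and the 170 in C3H were 93 with C3H arrays alone, 105 with array weights and 295 after quantile normalization. Without adjustment, limma gave p under 0.05 for 1 member among 129 mice, 3 among B6J, 2 among B6N and 0 among C3H, and for 1093, 1152, 1133 and 1642 of the 19938 genes. The members' median HFD effect on the log2 scale was 0.08 for 129 mice, 0.04 for B6J, 0.01 for B6N and 0.06 for C3H, where the median over all genes was between -0.003 and 0.009. The sign of these small medians was not stable outside 129, and turned without B6J HFD 4 (-0.004 in B6J), without C3H HFD 6 (-0.006 in C3H), with bright genes only (-0.001 in B6N and -0.007 in C3H) and, in B6N, after quantile normalization (-0.003), with array weights (-0.013) and with the B6 parts as a term (-0.001). In the mean effect over the 4 strains, 1 of 30 members was lower, Bst2, against 1.14% of all genes called lower and 3.16% called in either direction. Unadjusted limma p was under 0.05 in the mean effect for 7 of 30 members and for 2215 of all 19938 genes.

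These results bound the size of the effects on the array signal as well. RMA, the method behind these signals, shrinks differences at low signal. For Ifit2, Mx2 and Oas2, below the array median in every group, a narrow interval may therefore not bound the change in RNA. The same limit holds for members below it in some groups. These were Cmpk2 and Gbp3 in 129, Xaf1 in B6J, B6N and C3H, and Cmpk2 in B6J HFD livers and C3H. In C3H they were also Ifit3, and in C3H controls Ifit1 and Zbp1. The 95% interval of the HFD effect stayed within 1.5-fold either way for 28 of 30 members each in 129, B6J and B6N, and for all 30 in C3H and in the mean of the strains. The intervals that went beyond it were those of Stat2 (up to 0.64) and Gbp3 (0.59) in 129, of Gbp3 (0.94) and Ifit1 (0.87) in B6J, and of Gbp3 (0.595) and Tap1 (0.59) in B6N. No member was called for a difference in HFD effect between strains in the limma F test (2 members at unadjusted p under 0.05, Psmb10 and Gbp3; 0.125% of all genes called) or in any of the 6 pairwise differences of strains. The share of all genes called in these pairs was 0.00502% for B6J minus 129, 0.0401% for B6N minus 129, 0.0602% for C3H minus 129, 0% for B6N minus B6J, 0.0401% for C3H minus B6J and 0.0451% for C3H minus B6N. B6N and B6J controls also gave no call (0 of 30 called in limma, 3 at unadjusted p under 0.05; 0.0351% of all genes called).

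**Figure D1:**
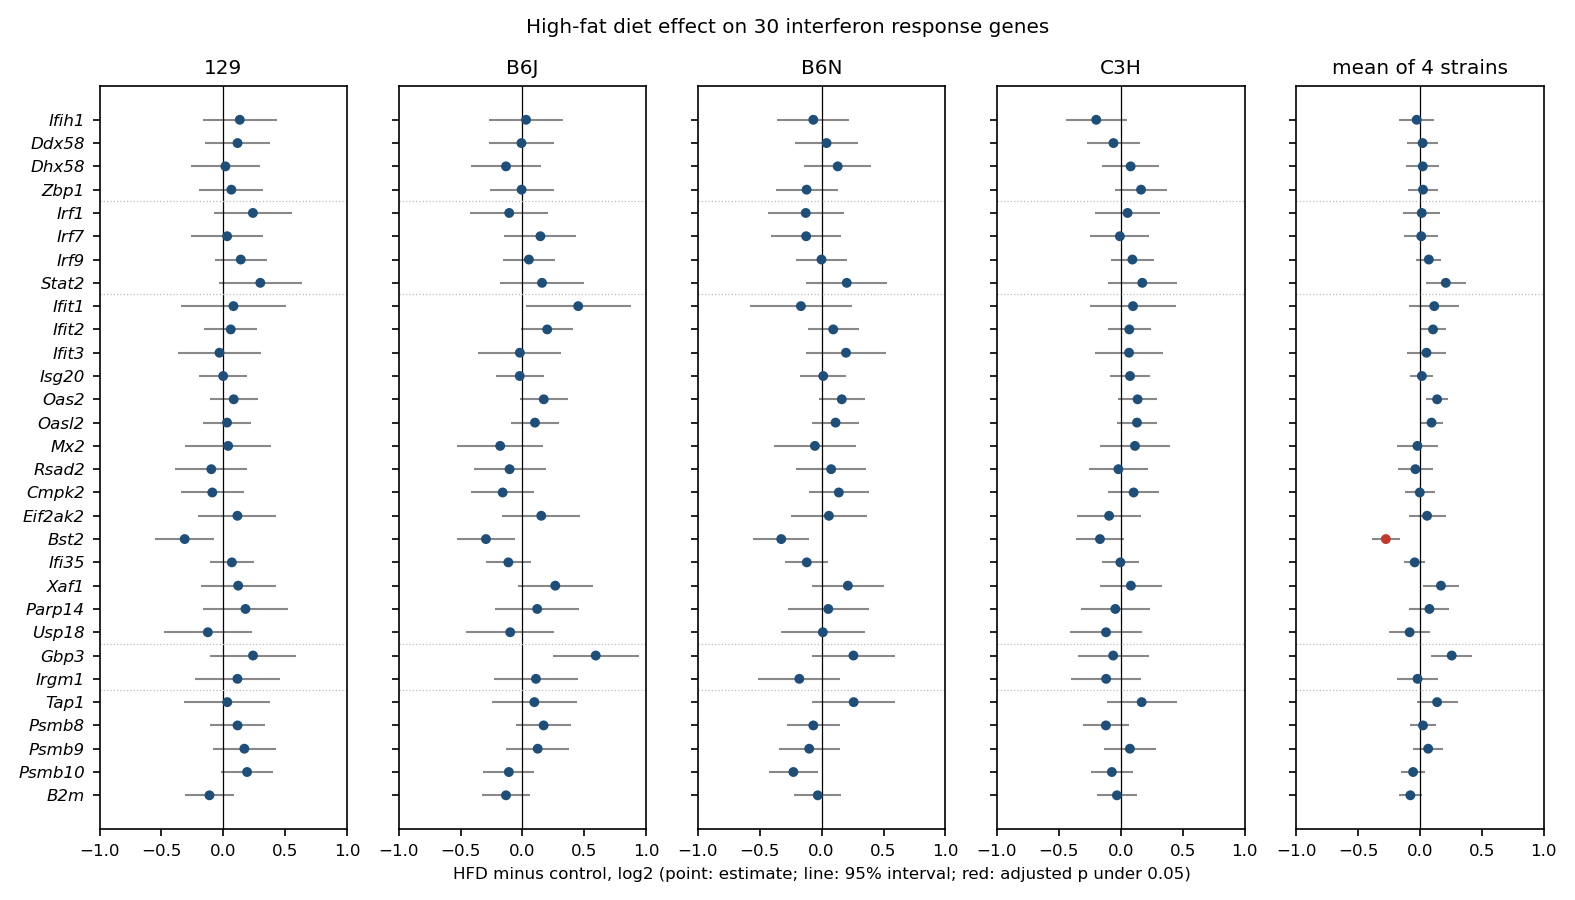
HFD minus control on the log2 scale for the 30 members (vertical axis, dotted lines between roles) in each strain and in the mean of the 4 strains; points are limma estimates and lines 95% intervals, red where the adjusted p was under 0.05. The red point is Bst2 in the mean of the strains (-0.28), and its estimate lies left of 0 in all 4 strains.

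Bst2, which encodes tetherin, a membrane protein that holds budding virus particles on the cell surface, was the exception. In 129 its signal ran from 8.39 to 8.91 (median 8.60) in the 8 controls and from 7.94 to 8.48 (median 8.37) in the 7 HFD livers. B6J controls ran from 8.39 to 9.29 (median 8.86) and B6J HFD livers from 8.19 to 8.76 (median 8.55). In B6N the range was 8.53 to 9.27 (median 8.92) in controls and 8.37 to 8.84 (median 8.53) on HFD. In C3H it was 6.50 to 7.56 (median 6.87) in the 18 controls and 6.39 to 6.96 (median 6.78) on HFD. The ranges of the arms overlapped in every strain, but 29 of 30 HFD livers lay below the control median of their own strain, the exception being a C3H liver. HFD livers below every control of their strain numbered 4 of 7 in 129, 1 of 7 in B6J, 4 of 8 in B6N and 2 of 8 in C3H.

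Against the controls, Bst2 differed on HFD by -0.31 ± 0.12 (SE) in 129 mice, -0.295 ± 0.118 in B6J mice, -0.33 ± 0.11 in B6N mice and -0.17 ± 0.10 in C3H mice, with limma adjusted p of 0.44, 0.65, 0.31 and 0.70. The mean over strains was -0.28 ± 0.06 (95% interval -0.39 to -0.16), a signal 1.21-fold lower on HFD, with a limma adjusted p of 0.00051. A difference between strains was not called (limma F test, unadjusted p = 0.68). Within the 2 parts of the B6 arrays the differences were -0.14 and -0.34 in B6J and -0.30 and -0.41 in B6N (exact two-sided permutation p = 0.28, 0.067, 0.086 and 0.024, with 2 to 5 arrays per arm). With 4 controls and 2 HFD livers in the second B6J part, 0.067 was the smallest p this permutation test could give. The size in C3H depended on the scaling, and was -0.04 after quantile normalization over all arrays.

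Bst2 is also a marker of plasmacytoid dendritic cells, the main producers of type I interferon, so the other markers of these cells were read beside it. Of the 7 markers listed, Bst2 included, limma called Bst2 alone in the mean effect, and the median of the list was 0.03. Siglech, a surface lectin of these cells, had a mean below the array median of single-symbol probe sets in every group. At such a signal a change could be missed. In 129 its means lay at the low end of the array medians over all probe sets (6.46 to 6.65). Its mean went from 6.46 to 6.45 in 129, 3.87 to 3.86 in B6J, 3.95 to 4.02 in B6N and 2.77 to 2.83 in C3H, from control to HFD. Markers of macrophages and Kupffer cells ran the other way: 6 of 18 were higher in 129 and 6 of 18 in the mean effect (2.02% of all genes higher there; 0.441% in 129), with a median effect of 0.44 for 129 mice, 0.27 for B6J, 0.04 for B6N and 0.07 for C3H. The mean signal of the 18 macrophage genes had a median over arrays of 8.0 in 129 controls and 8.43 in 129 HFD livers, whose ranges overlapped. Their part in the interferon values was not tested.

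**Figure D2:**
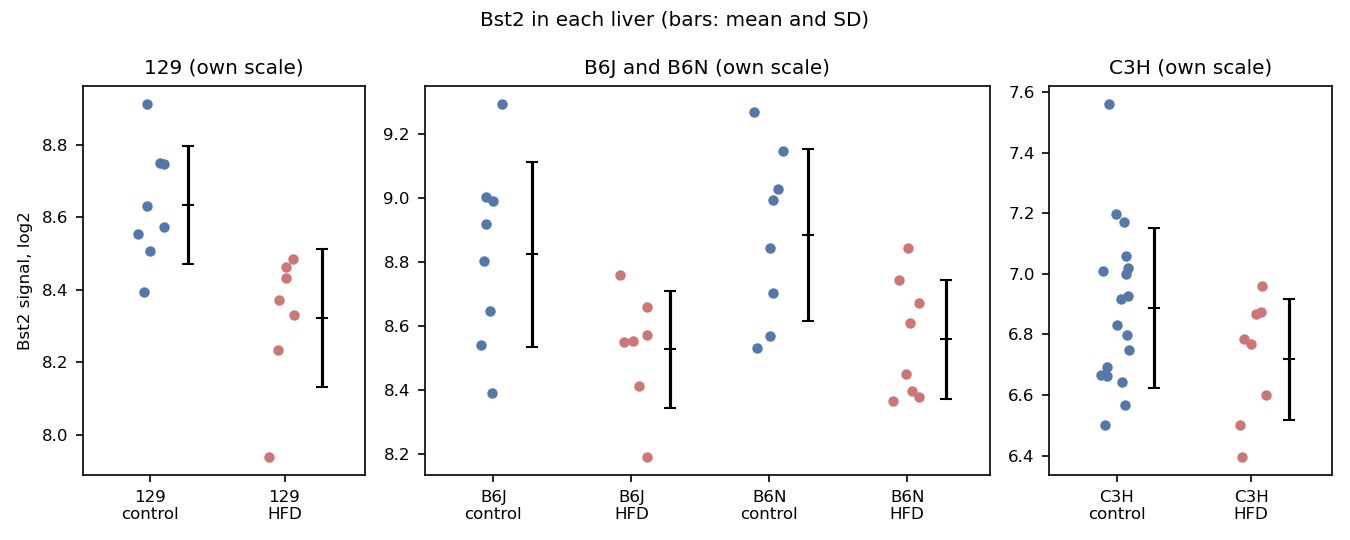
Bst2 signal (log2) in each of the 72 livers by strain and diet, in 3 panels because the sets have scales of their own; points are mice, and bars give the mean and SD. HFD points sit lower within each strain but overlap the controls, as in 129, where 4 of 7 HFD livers lie below all 8 controls.

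The promoter of Bst2 is shown because it was the only member called and because it holds both kinds of interferon element. The searched motifs were the ISRE core, GAAA repeated after any 2 bases, and the GAS core TTCNNNGAA, on both strands, in RefSeq promoter windows of 300 bases (250 before to 50 after an annotated start, assembly GRCm38.p6). The 160 bases before the start are printed 5′ to 3′ in the direction of the gene, with matches in capitals. Here a GAS match 136 bases before the start runs into ISRE matches that begin 130 and 124 bases before it, and the 3 overlap.
Bst2 (chr8:71537473-71537632, minus strand): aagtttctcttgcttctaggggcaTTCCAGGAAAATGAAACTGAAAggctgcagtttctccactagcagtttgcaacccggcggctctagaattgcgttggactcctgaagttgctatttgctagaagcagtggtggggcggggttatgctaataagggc

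Among the sensors, Ifih1, Ddx58 and Dhx58 encode the RIG-I-like helicases that detect viral RNA, and Zbp1 a sensor of Z-form nucleic acid. HFD effects on these 4 lay within 0.02 to 0.13 for 129 mice, -0.13 to 0.03 for B6J, -0.12 to 0.13 for B6N and -0.20 to 0.16 for C3H. The lowest, Ifih1 in C3H, was -0.20 ± 0.12 (limma adjusted p = 0.74). In the mean effect all 4 lay between -0.03 and 0.03.

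The transcription factors were Stat2 and Irf9, partners in the complex that binds the ISRE, Irf7, which drives interferon genes, and Irf1, an early target of interferon gamma. Stat2 had positive HFD effects throughout, 0.30 ± 0.17 for 129 mice, 0.16 ± 0.17 for B6J, 0.20 ± 0.16 for B6N and 0.17 ± 0.14 for C3H, and none passed (limma adjusted p of 0.85 in C3H and higher elsewhere). Its mean effect was 0.21 ± 0.08 (limma adjusted p = 0.20), with 20 of 30 HFD livers above the control median of their strain. Irf1 had 0.24 ± 0.16 in 129 and -0.13 ± 0.15 in B6N. Its second probe set gave 0.05 and -0.03 for the same comparisons, so the size of these differences depends on the probe set. Irf7 and Irf9 had mean effects between 0.01 and 0.08.

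Of the 15 antiviral effectors, Bst2 was the only call. Ifit1, which binds viral RNA that lacks the host cap methylation, ran from 4.48 to 6.08 (median 5.13) in B6J controls and from 5.22 to 6.02 (median 5.69) in B6J HFD livers. All 7 HFD livers lay above the control median yet within the control range, and the difference of 0.45 ± 0.21 had a limma adjusted p of 0.81. In B6N the difference was -0.17 ± 0.21. Oas2, which makes the oligoadenylate second messenger of RNase L, had effects of 0.08, 0.17, 0.16 and 0.14 in 129, B6J, B6N and C3H and a mean of 0.14 ± 0.05 (limma adjusted p = 0.089). Because Oas2 lay below the array median in every group, the size of its fold is uncertain. Xaf1, a promoter of cell death, had a mean effect of 0.17 ± 0.07 (0.30), Ifit2 of 0.11 ± 0.05 (0.41) and Oasl2 of 0.09 ± 0.05 (0.45), each with its limma adjusted p. Oas2 and Xaf1 were higher than the control median in 23 of 30 HFD livers each. The Ifit and Oas genes belong to families of close copies whose probe sets can share signal.

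The GTPases Gbp3, a guanylate-binding protein recruited to pathogen vacuoles, and Irgm1, a regulator of autophagy and of the other immunity-related GTPases, are strong targets of interferon gamma. Gbp3 had the largest single HFD effect of any member. In B6J it ran from 4.82 to 5.51 (median 5.24) in the 8 controls and from 5.39 to 6.07 (median 5.86) in the 7 HFD livers. Of the HFD livers 6 of 7 lay above every control, and the ranges overlapped only at the lowest HFD liver. The difference was 0.59 ± 0.18 (95% interval 0.24 to 0.94), a 1.51-fold higher signal, with a limma adjusted p of 0.19, and it passed when B6J arrays were fitted alone (limma adjusted p = 0.013) or without C3H control 18, a liver described below (0.015). Gbp3 differed by 0.24 ± 0.18 in 129, where it lay below the array median, 0.26 ± 0.17 in B6N and -0.06 ± 0.14 in C3H, or 0.05 ± 0.11 without C3H control 18. The mean effect was 0.26 ± 0.08 (limma adjusted p = 0.078), and it was called without C3H control 18 (0.0020), B6J HFD 6 or B6N HFD 7. Gbp3 belongs to a family of close copies whose probe sets may share signal. Irgm1 had effects from -0.18 in B6N to 0.11 in 129.

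The antigen presentation genes were Tap1, a subunit of the peptide transporter, the immunoproteasome subunits Psmb8, Psmb9 and Psmb10, and B2m. None passed in any comparison. Psmb10 had effects of 0.19 ± 0.10 in 129 and -0.23 ± 0.10 in B6N, and its difference between strains had an unadjusted p of 0.037 in the limma F test (adjusted p = 1). Tap1 had 0.26 ± 0.17 in B6N and 0.17 ± 0.14 in C3H. B2m had effects from -0.13 to -0.03 in the 4 strains. Psmb9 showed the largest margin between the controls of the B6 substrains after Ifit1. It ran from 6.96 to 7.46 (median 7.33) in B6J controls and from 7.32 to 7.92 (median 7.74) in B6N controls. The ranges overlapped, and the difference of 0.39 ± 0.12 had a limma adjusted p of 0.58. For Ifit1 it was 0.51 ± 0.21 (limma adjusted p = 0.70), with controls from 4.48 to 6.08 in B6J and from 5.30 to 6.58 in B6N.

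The rest of the pathway was read from a list of 73 other measured genes, which comprised 11 ligands and receptors, 23 signalling genes and 39 further targets. In the mean effect limma called 2 of 73 higher and 2 lower (all genes 2.02% and 1.14%), and 23 had an unadjusted p under 0.05, as had 2215 of all 19938 genes. The ligands gave no call, and Ifngr2, a chain of the interferon gamma receptor, was higher by 0.20 ± 0.05 (limma adjusted p = 0.0049), with 26 of 30 HFD livers above the control median of their strain. After quantile normalization over all arrays this call was lost (limma adjusted p = 0.096). Dtx3l, a ubiquitin ligase that works with Parp9, was higher by 0.23 ± 0.06 (limma adjusted p = 0.0080). Its effect was 0.36 in 129, 0.27 in B6J and 0.37 in B6N but -0.07 in C3H, and the difference between strains was not called (limma F test, adjusted p = 0.99). Psme1, an activator subunit of the proteasome, was lower, at -0.17 ± 0.05 (limma adjusted p = 0.017).

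Irf5, a factor that couples Toll-like receptors to interferon and cytokine genes and is best known in myeloid and B cells, gave the only calls of these 73 genes within a strain. In B6N it ran from 5.89 to 6.44 (median 6.17) in controls and from 5.20 to 6.01 (median 5.53) on HFD. Of the HFD livers 7 of 8 lay below every control. It fell by 0.61 on the log2 scale (SE 0.12; limma adjusted p = 0.00068; 0.281% of all genes lower). In C3H it ran from 4.22 to 5.16 (median 4.69) in controls and from 3.63 to 4.77 (median 4.37) on HFD, where 3 of 8 lay below every control. The difference there was -0.44 ± 0.10 (limma adjusted p = 0.0082; 0.336% of all genes lower), and this call was lost without C3H HFD 5 (adjusted p = 0.078), with the replicate block (-0.31, 0.28), with array weights (0.066) and with C3H arrays alone (0.086). The effects were -0.26 ± 0.12 in B6J and 0.04 ± 0.12 in 129, neither called, and the difference between the strains was not called either (limma F test, adjusted p = 0.44). Over the strains the mean was -0.32 ± 0.06 (limma adjusted p = 8.7e-05).

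Differences between mice of the same group were wide. The SD within groups, pooled over the 8 groups, had a median of 0.28 over the members and of 0.21 over all genes. It was widest for Ifit1 (0.43), followed by Usp18 (0.36), Gbp3 (0.35), Tap1 (0.35) and Mx2 (0.35), all with C3H control 18 included. Without that liver the SD among C3H controls went from 0.54 to 0.30 for Gbp3, 0.52 to 0.34 for Tap1 and 0.45 to 0.35 for Usp18. For Ifit1 it went from 0.44 to 0.39 and for Mx2 from 0.41 to 0.38. The order of the pooled SDs therefore rests in part on a single liver. Usp18 encodes the protease that removes ISG15 from proteins and damps receptor signalling, and Mx2 a dynamin-like antiviral GTPase.

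A single liver, C3H control 18, stood apart from all others. The mean deviation of the 30 members from their group mean was 0.67 in this liver, while the next highest C3H control was at 0.10 and the highest array of any other group, 129 control 4, was at 0.26. It was the highest of the 18 C3H controls for 18 of 30 members, where 4.61% of all genes were highest in it, and it lay above all 8 C3H HFD livers for 18 of 30 members and for 1411 of all 19938 genes. The liver was singled out after its values were seen, and a single mouse gives no test.

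**Figure D3:**
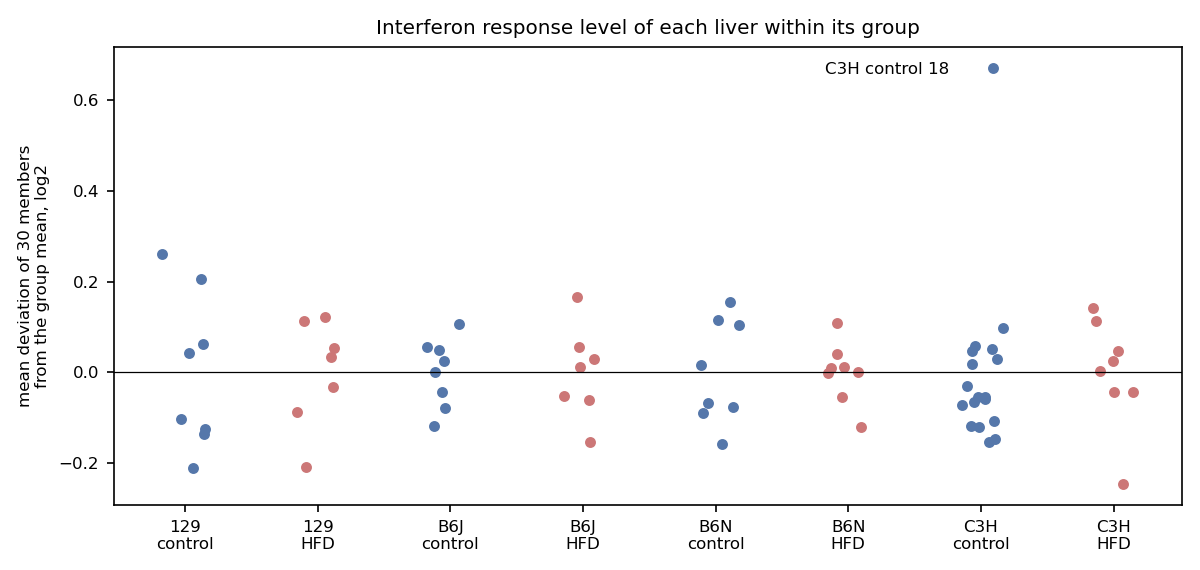
Mean deviation of the 30 members from the mean of their group (log2, vertical axis) for each of the 72 livers, by strain and diet (blue for controls, red for HFD). C3H control 18 sits at 0.67, and every other liver between -0.25 and 0.26.

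The GTPases were furthest from the other 17 C3H controls. Gbp3 was at 5.74 in this liver against 3.28 to 4.35 (median 3.79) in the others, 1.93 above their mean of 3.82 or 3.8-fold. Irgm1 was at 7.65 against 5.25 to 6.30 (median 5.78), 1.81 above the mean of the others. The 8 HFD livers reached 4.20 for Gbp3 and 6.12 for Irgm1, so both genes were highest in this control by a wide margin.

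Antigen presentation followed. Tap1 was at 6.12 against 3.85 to 5.13 (median 4.45) and Psmb9 at 7.73 against 5.87 to 6.49 (median 6.24), differences from the mean of 1.73 and 1.5. Psmb8 and Psmb10, the other subunits of the same proteasome, were higher than in every other C3H control by 0.91 and 0.59 over the mean. B2m went the other way, at 11.02 against 11.33 to 11.98, 0.60 below the mean and the lowest of the 18. It was the only member lowest in this liver, which held the lowest value of 5.18% of all genes.

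Among the transcription factors Irf1 led, at 6.77 against 4.68 to 5.86 (median 5.35), a difference of 1.45. Irf7 was 0.93 and Irf9 0.72 above the mean, each above all other C3H controls, and Stat2 was 0.51 above it and inside the range of the others. Of the sensors, Zbp1 was 1.04, Ifih1 0.65 and Ddx58 0.53 above, all 3 highest in this liver, and Dhx58 only 0.19. The antiviral effectors were uneven. Usp18 was 1.29, Xaf1 1.27, Parp14 1.18, Mx2 0.81 and Cmpk2 0.61 above the mean, each higher than in every other C3H control, as was Ifit2 by a smaller margin (0.26 above the mean). Ifit1 was 0.96 above the mean yet inside the range of the others, at 4.32 against a highest of 4.42. Ifit3 (0.33), Bst2 (0.30), Rsad2 (0.21), Eif2ak2 (0.12), Oasl2 (0.11), Ifi35 (0.11), Isg20 (-0.06) and Oas2 (-0.08) also lay inside the range of the other 17. The median difference was 1.87 for the 2 GTPases, 0.91 for antigen presentation, 0.82 for transcription factors, 0.59 for sensors and 0.30 for effectors, against -0.01 over all genes. Zbp1, Xaf1, Mx2, Cmpk2, Oas2 and the 3 Ifit genes lay below the array median in C3H controls, so their folds are uncertain in size.

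**Figure D4:**
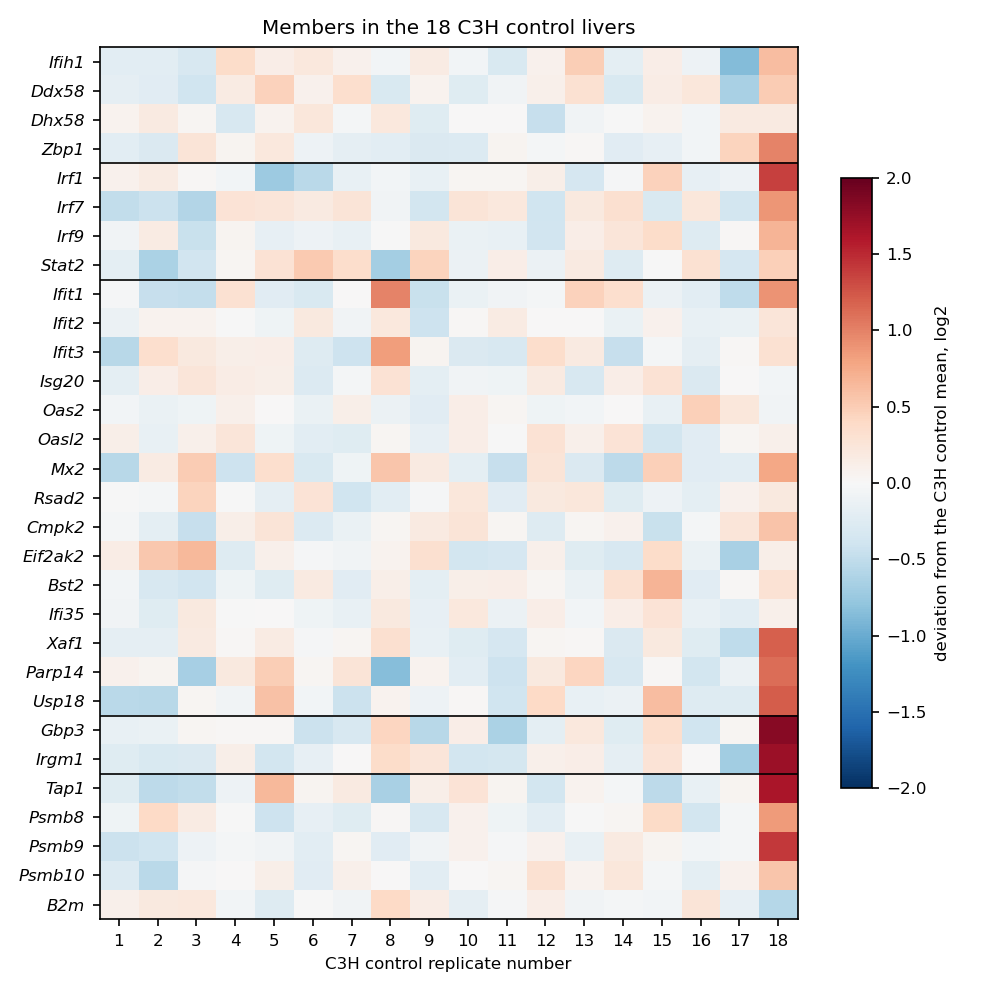
Deviation of each member (rows, by role: sensors, transcription factors, antiviral effectors, GTPases, antigen presentation, from top to bottom) from the C3H control mean in the 18 C3H control livers (columns, replicate number); red is higher and blue lower, on the log2 scale. The column of liver 18 is red in 27 of 30 rows, deepest for Gbp3 (1.93 above the mean of the others), and blue for B2m.

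Genes outside the list showed the same liver. Against the mean of the other 17, 23 of all genes were at least 2-fold lower in C3H control 18, with 0 members among them. At least 2-fold higher were 35 genes, and 9 of these were members and 4 were other pathway genes. The first by size was BC023105 (5.95 above the mean), and Gm12250 (3.19) and the guanylate-binding genes Gbp7 (2.40) and Gbp4 (2.07) were among the first 8. The same 8 held the metallothioneins Mt2 (3.23) and Mt1 (2.56), which bind metal and respond to stress, Cyp26a1 (2.78), which degrades retinoic acid, and Rgs16 (2.38). Mt2, Mt1, Cyp26a1 and Rgs16 also varied widely among the other livers (SD 0.78 to 1.41), with Mt2 reaching 10.39 in another C3H control against 10.35 here. Of the 73 pathway genes 21 were highest in this liver (4.61% of all genes were), among them Rtp4 (1.63), Psme1 (0.83), Gbp5 (0.81) and Dtx3l (0.70). Ifng itself was at 2.78 against 2.36 to 3.53 and Ifnb1 at 2.13 against 2.17 to 3.22, below the array medians.

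Markers of other cells were read in the same liver. Lymphocyte markers lay at a median difference of -0.02 and plasmacytoid dendritic markers at 0.14. Highest in it were 0 of 16 and 0 of 7, where 4.61% of all genes were highest. The mean of the lymphocyte list was 2.74 to 2.93 in the C3H controls, below their array medians, and Siglech was at 2.81 in this liver. At so low a signal a change in these cells could be missed. Macrophage markers had a median of 0.04, with 3 of 18 highest, Mpeg1 (1.27), C1qa (0.75) and C1qc (0.74). Endothelial markers had a median of 0.43, with 4 of 9 highest, and hepatocyte markers a median of 0.00, with 2 of 9 highest. Pancreatic acinar markers, which vary widely between these livers, had a median of -1.04. The part of these cells in the interferon values of this liver was not tested.

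The C3H comparison was repeated without this liver. The median HFD effect of the members in C3H went from 0.06 to 0.08, the number of members with a positive effect from 16 to 20, and 0 members were called either way (limma). Tap1 moved from 0.17 to 0.27 (limma adjusted p = 0.50).

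The promoters of Gbp3, Irgm1 and Irf1 are shown because these genes stood highest among the GTPases and transcription factors in that liver, and that of B2m because it went the other way. The stretches are the 160 bases before the annotated start, printed as for Bst2. Gbp3 holds ISRE matches that begin 45 and 39 bases before the start and overlap, Irgm1 holds a like overlapping pair 30 and 24 bases before it, Irf1 a GAS match 90 bases before it, and B2m an ISRE match 139 bases before it.
Gbp3 (chr3:142559884-142560043, plus strand): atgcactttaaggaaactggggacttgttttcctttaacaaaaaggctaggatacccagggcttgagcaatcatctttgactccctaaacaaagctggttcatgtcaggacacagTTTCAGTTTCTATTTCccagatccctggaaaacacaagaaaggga
Irgm1 (chr11:48871421-48871580, minus strand): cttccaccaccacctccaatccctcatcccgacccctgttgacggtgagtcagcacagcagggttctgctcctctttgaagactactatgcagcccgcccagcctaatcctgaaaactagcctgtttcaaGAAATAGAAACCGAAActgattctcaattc
Irf1 (chr11:53769854-53770013, plus strand): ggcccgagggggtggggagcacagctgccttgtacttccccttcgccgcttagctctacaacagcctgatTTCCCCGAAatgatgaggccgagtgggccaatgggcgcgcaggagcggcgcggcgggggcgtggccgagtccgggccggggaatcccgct
B2m (chr2:122147527-122147686, plus strand): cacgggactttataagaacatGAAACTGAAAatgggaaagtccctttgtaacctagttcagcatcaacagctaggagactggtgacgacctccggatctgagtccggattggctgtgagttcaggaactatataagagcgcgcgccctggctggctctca

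RefSeq promoter windows were found for 24 of the 30 members, 30 windows in all. An ISRE match was in 11 of 30 windows (36.67%) and in 3.44% of all 32851 windows of the same length, and a GAS match was in 7 of 30 (23.33%) and in 8.30% of all. The members are known targets of these elements, and a match is a description and shows no binding. Of the 9 members at least 2-fold higher there, 6 had a window, of which Gbp3 and Irgm1 held an ISRE match, Irf1 a GAS match, and Tap1, Psmb9 and Xaf1 neither. Tap1 and Psmb9 lie head to head on chromosome 17 and their windows share 275 bases (chr17:34187306-34187580). The median difference in that liver was 0.51 over the 11 members with an ISRE match and 0.72 over the 13 others with a window.

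Co-variation of the members among mice of the same group differed between groups and often rested on few mice. Over all pairs of members, the median Pearson correlation across the arrays of a group was 0.40 in 129 controls, 0.31 in 129 HFD livers, 0.06 in B6J controls, 0.23 in B6J HFD, 0.225 in B6N controls, 0.05 in B6N HFD, 0.23 in C3H controls and 0.13 in C3H HFD. Over all pairs of genes it was between -0.003 and 0.063 in every group, where positive and negative pairs offset each other. Correlations above 0.5 made up 41.15% of member pairs and 24.7% of all gene pairs in 129 controls. These shares were 34.94% and 21.66% in 129 HFD, 16.78% and 14.23% in B6N HFD, and 20.23% and 4.67% in C3H controls. Without liver 18 they were 7.82% and 5.20% in C3H controls. With 7 or 8 arrays in most groups, a single correlation is imprecise, and arrays of a group share their processing, so these values are descriptions. In B6J controls 56.32% of member pairs were positive and in B6N HFD livers 55.4%, near the 50.29% and 50.22% over all pairs of genes. Leaving out a single mouse moved several medians: to 0.03 in C3H controls without liver 18, to 0.14 in 129 HFD without HFD 2, to 0.08 in B6J HFD without HFD 4, and to 0.007 without HFD 3 or 0.195 without HFD 6 in C3H HFD. The low medians of B6J controls ran from 0.03 (without control 4) to 0.11 (without control 5; 0.09 without control 7) and those of B6N HFD from 0.03 (without HFD 4) to 0.08 (without HFD 5; 0.07 without HFD 1). In 129 controls the range was 0.36 to 0.55, highest without control 6, and in B6N controls 0.21 to 0.27.

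**Figure D5:**
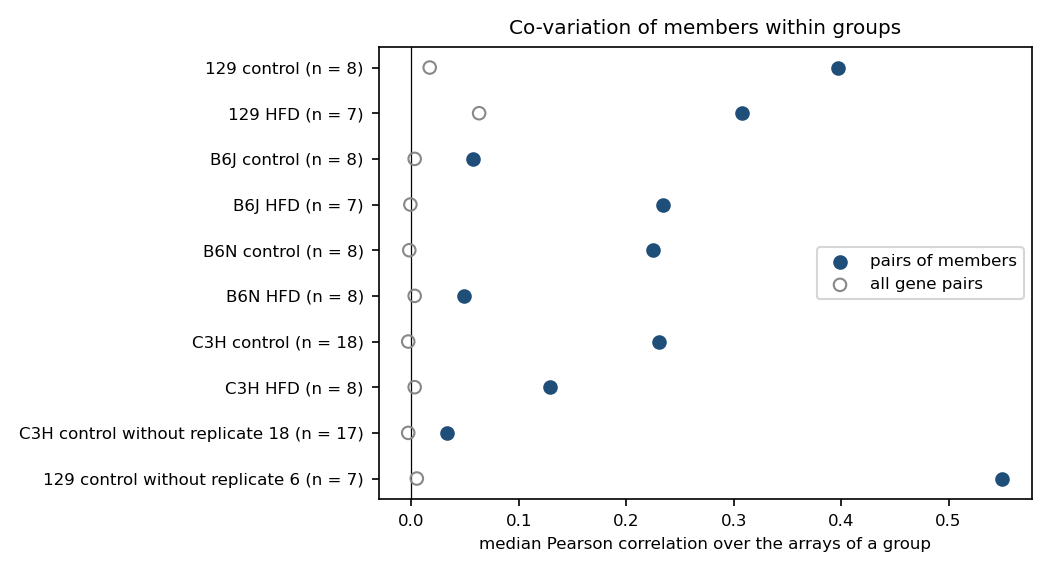
Median Pearson correlation over all pairs of members (filled) and over all pairs of genes (open) across the arrays of each group; the lower lines leave out a single liver. With all arrays, members lie above all gene pairs in each group, from 0.05 in B6N HFD to 0.40 in 129 controls, and C3H controls drop from 0.23 to 0.03 without liver 18.

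Deviations from the group means were then pooled over all 72 arrays. The median correlation of member pairs was 0.20, or 0.14 over the 71 arrays without C3H control 18, and 0.001 over all pairs of genes. By role it was 0.44 among the transcription factors (0.34 without that liver), 0.18 among the effectors (0.15), 0.19 among the sensors (0.175), 0.20 among the antigen presentation genes (0.04) and 0.59 for the single pair of GTPases (0.28). Pairs between roles had a median of 0.205 (0.13), above the medians within the effectors, sensors and antigen presentation genes over the 72 arrays, but below those of the effectors and sensors without that liver. The members with the highest median correlation with the others were Irgm1 (0.38), Irf9 (0.36), Irf7 (0.35) and Usp18 (0.33), and these were 4 of the first 5 without that liver, at 0.24, 0.23, 0.23 and 0.22. The lowest were B2m (-0.18, or 0.02 without that liver) and Oas2 (-0.04). The closest pair with and without that liver was Ifih1 and Ddx58 (0.79 and 0.78), the genes of the sensors MDA5 and RIG-I.

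Outside the list, the genes whose deviations were most like the mean of the members over the 72 arrays were Rtp4 (r = 0.77), BC023105 (0.71), Gbp7 (0.70), Gbp4 (0.64), Gm12250 (0.64), Parp9 (0.61), Samhd1 (0.60), Parp12 (0.59), Ppp1r21 (0.56) and Rnf115 (0.55). Of these 10, 6 were in the pathway lists, and without C3H control 18 the first 10 held 3 of them. Rtp4, a chaperone of membrane receptors, stayed first without C3H control 18 (0.65), and Parp9 came next (0.59). Only 3 of the first 10 were shared with the first 10 without that liver, where BC023105 fell to rank 174 and Gm12250 to rank 2362.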

How the data were processed

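The authors deposited 1 table of log2 signals for 35556 probe sets on 72 Affymetrix Gene ST arrays, made with RMA; per the submitters' processing notes the software was Affymetrix Expression Console 1.1. Whether all arrays were normalised together is not given in the sources used here; array medians showed 3 sets. RMA shrinks differences at low signal, and arrays give no read depth, so the number of arrays limits the precision. Symbols were those of the platform annotation after an update by Entrez identifier, with 21789 probe sets of 1 symbol, 1621 of several and 12146 not listed.

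Tests on the 19938 genes used limma 3.58.1 under R 4.3.3, a mean per group, 64 residual degrees of freedom, two-sided moderated tests and Benjamini-Hochberg adjustment over all genes, after a check on simulated data. The named genes were those called, the 4 members of largest effect per strain, the 5 of widest spread, the 4 highest and 2 lowest in median correlation, the 10 most alike other genes and the pathway genes called. Outside this rule, and after their values were seen, members at unadjusted p under 0.05 in the mean effect, those that differed most between B6 controls and further members in C3H control 18 were named. Promoters are from RefSeq, GRCm38.p6. Alternatives covered scaling, bright genes, probe sets, weights, moderation, samples, replicate block and leaving out each array. The labels say nothing of shared litters or days, so the p-values cover the spread among these samples only. The replicate block rests on the replicate numbers in the labels. Same-numbered B6N control and HFD arrays deviated together (correlation 0.10 to 0.46 in 8 of 8 pairs), but only 2 of the 8 correlated best with their own number. A pairing of mice is therefore not established in B6N either. Lists and members were chosen with earlier results of these data known.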

Additional observations from a re-analysis of the deposited data

Results flagged for a closer look

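The highest or lowest array of each group of 7 or 8 was compared with its nearest neighbour for the 17 named genes and for the mean deviation of the members, 126 sets of values in all. In 7 of them the gap was wide for the range of the group, where chance alone gives about 1 in 20. In 129 controls, replicate 6 was lowest for Ifih1 (8.64, nearest 9.18) and for Dtx3l (8.87, nearest 9.34), and replicate 7 was highest for Oas2 (6.70, nearest 6.53). In B6N controls, replicate 2 was lowest for Irf1 (6.57, nearest 7.03). In B6N HFD livers, replicate 4 was lowest for Stat2 (6.74, nearest 7.42) and replicate 6 highest for Oas2 (4.97, nearest 4.55). In C3H HFD livers, replicate 2 was lowest for Ifit2 (2.09, nearest 2.44). The 129 control 6 array also dominated the first principal component of its strain, and the cause of these gaps was not tested. The C3H controls, a group of 18, were not part of this comparison.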

How the results depend on the processing

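Bst2 was called lower in the mean effect under all 8 other settings (-0.31 to -0.24) and without each array. The count of called members in the mean effect was 1 as reported and went to 2 with bright genes only (Gbp3 added), 3 with array weights (Gbp3 and Oas2 added) and 3 with the replicate block (Gbp3 and Xaf1 added), and ranged from 1 to 2 when arrays were left out in turn (2 without B6J HFD 6, B6N HFD 7, C3H control 16, C3H control 18 or C3H HFD 5). In 129 it was 1 with array weights (Bst2). In B6J it was 1 with array weights, with B6J arrays alone and with the replicate block (Gbp3 each time; adjusted p = 0.036, 0.013 and 0.033 in limma), and 0 to 1 over the left-out arrays (1 without C3H control 18). In B6N it was 1 (Bst2, adjusted p = 0.049) with the B6 parts as a term, an alternative added after the data were seen. The other counts of called members were unchanged at 0 under each setting run.

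Replicate numbers were shared by control and HFD groups. In 129, B6J and C3H they did not pair the arrays throughout (6 of 7, 5 of 7 and 1 of 8 pairs correlated above 0.1; 1, 3 and 1 correlated best with their own number). In B6N 8 of 8 pairs correlated above 0.1, but only 2 correlated best with their own number. With the replicate block, Irf5 in C3H was -0.31 (adjusted p = 0.28). Irf5 in C3H also missed the threshold with array weights (0.066) and with C3H arrays alone (0.086), and Ifngr2 did so in the mean effect after quantile normalization (0.096). The median correlation in C3H controls ranged from 0.03 to 0.26 over the left-out arrays, lowest without C3H control 18. With median centring or quantile normalization the median in C3H HFD was 0.25 or 0.03, in B6J controls 0.15 or 0.09 and in B6N HFD 0.13 or 0.02, and with Spearman correlation that of C3H controls was 0.14. The causes of these shifts were not tested, other than the added or missing arrays and genes. A signal under its array's median may be background.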
